A study of Mus musculus with 6 samples.

Results

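The 10 genes described here encode the GATA factors of blood (Gata1, Gata2 and Gata3), the GATA1 cofactor FOG1 (Zfpm1), and the complex that TAL1 builds with LMO2 and LDB1 (Tal1, Lyl1, Tcf12, Lmo2, Ldb1 and Cbfa2t3, also written Cbfa2t3h). They were taken by name, through the gene symbols of the Ensembl identifiers, from the 20097 genes listed for each library, and all 10 were listed and tested. The libraries were made from c-Kit+ bone marrow cells of the mouse, a progenitor-rich fraction that carries the stem cell factor receptor encoded by Kit. There were 3 libraries labelled WT, titled as WT controls, and 3 labelled Runx1 KO, in which the gene of the transcription factor RUNX1 is given as knocked out; the series title names RUNX1 and GATA2 together. No treatment is named, and the labels used here give neither the age, sex or strain of the mice, nor the allele, nor when and in which cells Runx1 was disrupted. They do not say whether libraries of a group came from separate mice, so p-values measure the spread between these samples, which may be technical.

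GATA factors are zinc finger proteins that bind the letters GATA in DNA. GATA2 acts in stem and early progenitor cells and in mast cells, GATA1 in red cells, megakaryocytes, mast cells and eosinophils, and GATA3 mainly in T cells and innate lymphoid cells. TAL1, or its relative LYL1, pairs with an E protein such as HEB, the product of Tcf12, to bind an E-box beside a GATA site. LMO2 bridges this pair to the GATA factor and to LDB1, which joins such assemblies to each other and can bring a distant enhancer to a promoter, while ETO2, the product of Cbfa2t3, recruits corepressors to the complex.

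Between 23297526 and 26793380 reads per library could be recovered over the listed genes, and no member had fewer than 74 reads in a library. Libraries of a group correlated with Pearson's r of at least 0.979 across the 15410 tested genes. Runx1 itself, the targeted gene, had 3031, 2799 and 3497 normalised reads under the WT label and 6648, 6720 and 5830 under the Runx1 KO label. It was higher, not lower, under the knockout label, and values per gene do not show whether a part of the transcript was missing. Kit had 8301 ± 280 normalised reads under the WT label and 12649 ± 1093 under the Runx1 KO label (SD, n = 3), so the sorting marker was present in both groups. Higher and lower always mean the Runx1 KO label relative to the WT label.

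Most of these genes rose, by modest amounts. By limma at an adjusted p under 0.05 over all genes tested, 7 of the 10 members were higher under the Runx1 KO label and 0 were lower, where 10.6% of all tested genes were called higher, 11.3% lower and 21.9% in either direction. The 7 were Zfpm1, Gata2, Tal1, Lmo2, Ldb1, Cbfa2t3 and Lyl1; Gata1, Gata3 and Tcf12 did not pass. In 8 of the 10 all 3 libraries labelled Runx1 KO lay above all 3 labelled WT, against 21.4% of tested genes above, 21.9% below and 43.3% in either direction, the 8 being the 7 called genes and Gata1. The median log2 change over the 10 was 0.48, against -0.0042 over all tested genes. Without Runx1 KO replicate 2 the count fell from 7 to 3, and without Runx1 KO replicate 1 it was 8. The genes that passed in all 17 fits run were Zfpm1, Lmo2 and Ldb1. In bulk RNA, more cells of a type and more RNA per cell cannot be told apart.

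**Figure D1:**
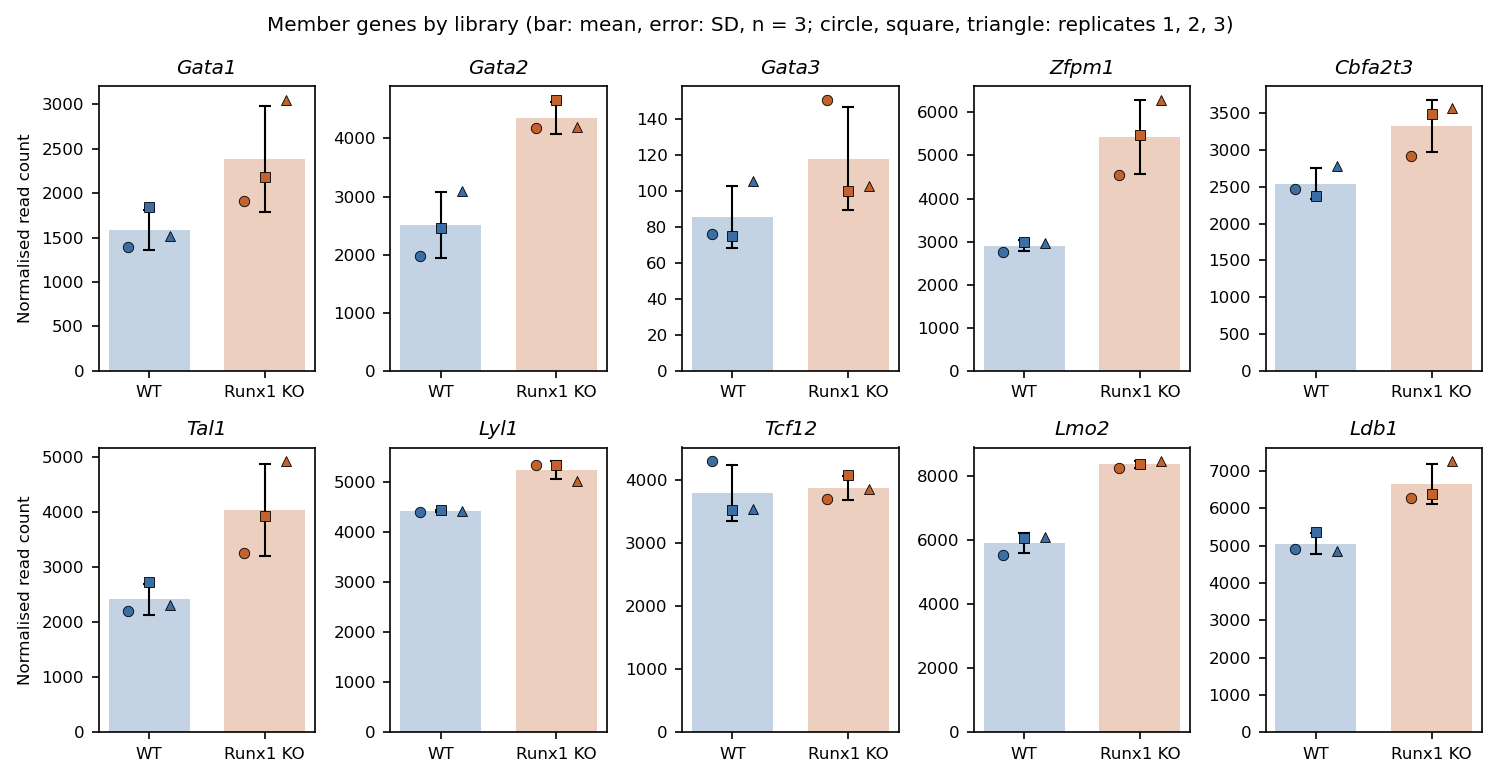
Normalised read count of each member gene in each library, with bars for the group mean and error bars for the SD (n = 3); every axis starts at 0. The points of the 2 labels do not overlap except for Gata3 and Tcf12.

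**Figure D2:**
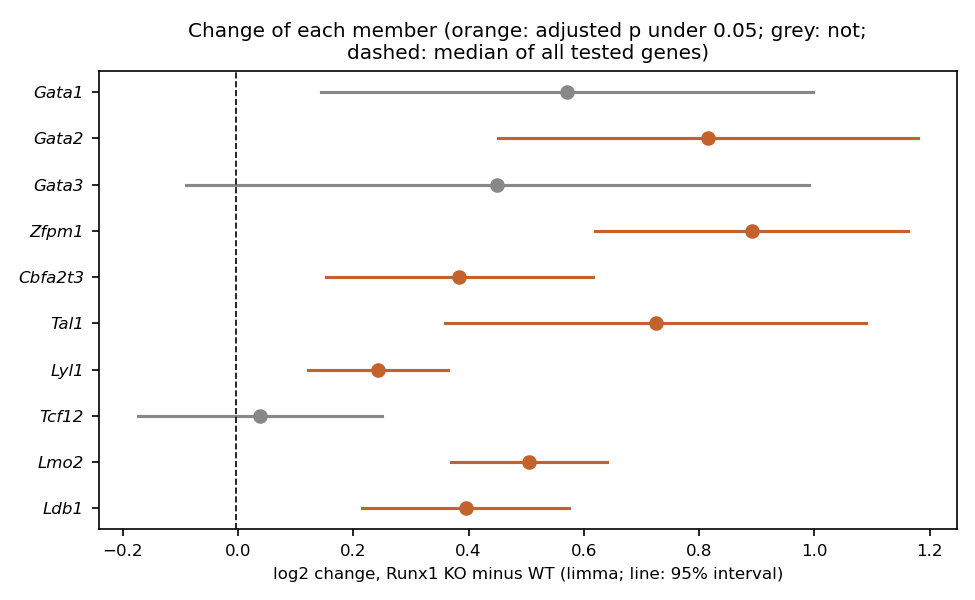
Log2 change of each member from WT to Runx1 KO, with the 95% interval of the limma fit; the dashed line is the median of all tested genes at -0.0042. Changes run from 0.04 for Tcf12 to 0.89 for Zfpm1.

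Gata2 (ENSMUSG00000015053, protein coding) lies at chromosome 6, 88193891 to 88207032 on the plus strand of GRCm38. It had 1971, 2460 and 3103 normalised reads in WT replicates 1 to 3 and 4178, 4670 and 4204 in Runx1 KO replicates 1 to 3. The libraries labelled WT were spread widely, with a coefficient of variation of 22.6%, and those labelled Runx1 KO lay close together at 6.36%. The means had a ratio of 1.73, with a log2 change of 0.82 (95% interval 0.45 to 1.18), with a limma adjusted p of 0.0128. Leaving out 1 library at a time kept the call in 5 of 6 cases; without Runx1 KO replicate 2 the limma adjusted p was 0.0555.

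Gata1 (ENSMUSG00000031162, protein coding; chromosome X, 7959260 to 7978071, minus strand) had 1399, 1840 and 1517 normalised reads under the WT label. The libraries labelled Runx1 KO had 1917, 2187 and 3054. The groups did not overlap, but the lowest library labelled Runx1 KO was close to the highest labelled WT, and Runx1 KO replicate 3 stood well above the others. The log2 change was 0.57 (95% interval 0.14 to 1.00) with a limma adjusted p of 0.0628, and edgeR gave 0.0592, so Gata1 did not pass. It passed with DESeq2, at an adjusted p of 0.00872, with library totals as scaling in limma (0.0395), with the replicate number as a block in limma (0.0383) and in edgeR (0.0367), and without Runx1 KO replicate 1 (0.0308).

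Gata3 (ENSMUSG00000015619, protein coding; chromosome 2, 9857078 to 9890034, minus strand) had the lowest values of the members. It had 76.2, 74.7 and 106 normalised reads under the WT label and 151, 100 and 102 under the Runx1 KO label, so the groups overlapped. Its log2 change of 0.45 had an interval of -0.09 to 0.99 and a limma adjusted p of 0.197. The exons of Gata3 share 155 bases with the antisense gene Gm13256 and 77 with 9230102O04Rik on the same strand. Neither was among the listed genes, and how reads in the shared bases were assigned was not checked. The T-lymphoid and innate lymphoid genes fixed as a list for comparison summed to between 2154 and 3825 normalised reads under the label WT and between 1006 and 2581 under Runx1 KO. Runx1 KO replicate 1 had both the highest Gata3 value and the highest sum of that list among the libraries labelled Runx1 KO. Under the WT label they differed: Gata3 was highest in replicate 3, and the sum in replicate 1 (3825, against 2735 in replicate 3). The part of such cells in the Gata3 level was not tested.

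Of 4 other GATA-type genes looked up, Trps1, which encodes a repressor with a GATA-type zinc finger, was the 1 listed. It had 703 ± 165 normalised reads under the WT label and 556 ± 93.5 under the Runx1 KO label (SD, n = 3). The limma adjusted p was 0.28. Gata4, Gata5 and Gata6 were not among the listed genes and were not analysed here.

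The largest change among the members was that of Zfpm1 (ENSMUSG00000049577, protein coding; chromosome 8, 122282141 to 122337251, plus strand). Its product FOG1 binds the amino-terminal zinc finger of GATA1 and recruits the NuRD chromatin complex. Zfpm1 had 2752, 2984 and 2977 normalised reads under the WT label and 4544, 5472 and 6276 under the Runx1 KO label. The lowest library labelled Runx1 KO was far above the highest labelled WT. The means had a ratio of 1.87, with a log2 change of 0.89 (95% interval 0.62 to 1.16), with a limma adjusted p of 0.00381, and the call was kept in all 6 fits that left out a library.

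Among 13 genes of NuRD subunits, 1 rose and 1 fell by limma, and 11 did not pass, with a median log2 change of -0.04. Chd3, a chromatin remodelling ATPase, rose by 0.53 (SE 0.08, limma adjusted p 0.00506). Mbd2, which encodes a methyl-CpG binding subunit, changed by -0.31 (SE 0.08, limma adjusted p 0.0314), and passed in 1 of the 6 fits without a library, the one that left out WT replicate 3. Library totals as scaling gave 2 NuRD genes higher, and DESeq2 gave 2 lower.

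Tal1 (ENSMUSG00000028717, protein coding; chromosome 4, 115056426 to 115071755, plus strand) encodes the basic helix-loop-helix protein that gives the complex its name. It had 2208, 2735 and 2310 normalised reads under the WT label and 3260, 3921 and 4927 under the Runx1 KO label. The groups were apart, with Runx1 KO replicate 3 the highest. The log2 change was 0.72 (95% interval 0.36 to 1.09), with a limma adjusted p of 0.0188. It kept its call in 3 of 6 leave-one-out fits; the limma adjusted p was 0.0510 without WT replicate 1, 0.0586 without WT replicate 3 and 0.0654 without Runx1 KO replicate 2.

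Lyl1 (ENSMUSG00000034041, protein coding; chromosome 8, 84701457 to 84704715, plus strand), the relative of Tal1, changed less. It had 4402, 4455 and 4429 normalised reads under the WT label, which is a coefficient of variation of 0.595%, and 5354, 5347 and 5033 under the Runx1 KO label. The groups were apart although the ratio of the means was only 1.18. Its log2 change was 0.24 (95% interval 0.12 to 0.36) with a limma adjusted p of 0.0184, and 4 of 6 leave-one-out fits kept the call. Its exons share 4 bases with Nfix on the opposite strand. Without Runx1 KO replicate 2 the limma adjusted p was 0.0881, and without WT replicate 3 it was 0.0528. The intervals of Tal1 and Lyl1 overlap narrowly, and their ratio is compared with those of other members.

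Tcf12 (ENSMUSG00000032228, protein coding; chromosome 9, 71842688 to 72111871, minus strand), the E protein member, was the gene that moved least. It had 4296, 3527 and 3543 normalised reads under the WT label and 3695, 4073 and 3859 under the Runx1 KO label. The highest value of all 6 was WT replicate 1, so the groups overlapped. The log2 change of 0.04 had a 95% interval of -0.17 to 0.25 and a limma adjusted p of 0.792, which leaves room for a rise or fall of that size. The other E protein genes did not pass either: Tcf3 changed by -0.09 (SE 0.09, limma adjusted p 0.506) and Tcf4 by -0.15 (SE 0.09, limma adjusted p 0.247).

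Genes of the ID proteins, which bind E proteins and keep them off DNA, fell in part. Of the 3 listed, 2 fell by limma and 0 rose. Id2 had 1623, 1585 and 1317 normalised reads under the WT label and 609, 355 and 330 under the Runx1 KO label. Every library labelled Runx1 KO was far below every library labelled WT, and the log2 change was -1.85 (SE 0.23, limma adjusted p 0.00346). Id3 had 190, 80.7 and 202 against 82.6, 17.8 and 19.9, with 1 library of each label overlapping, and a log2 change of -2.20 (SE 0.63, limma adjusted p 0.0468). Its call was lost in edgeR with TMM and in 5 of 6 leave-one-out fits, the exception being the fit without Runx1 KO replicate 1. Id1 changed by -0.21 (SE 0.28, limma adjusted p 0.619).

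Target genes of E proteins in B-cell precursors fell beside the ID genes: of 13 tested, 7 fell and 1 rose by limma, with a median log2 change of -3.02. Pax5 had 3210 ± 2446 normalised reads under the WT label and 127 ± 172 under the Runx1 KO label (SD, n = 3), and Cd79a and Ebf1 fell by 5.18 and 4.60 on the log2 scale. Dntt, which encodes terminal transferase, rose by 0.57 (SE 0.14, limma adjusted p 0.0311). These B-lineage genes varied most among the libraries labelled WT, their sum running from 8647 to 34333 normalised reads there and from 3853 to 6761 under Runx1 KO. Without Runx1 KO replicate 2 just 1 of them was called lower, without Runx1 KO replicate 3 it was 2 and without WT replicate 3 it was 4; Dntt lost its call without Runx1 KO replicate 2 and without WT replicate 2 or 3. WT replicate 1 had the highest sum of these genes and also the highest Tcf12 value. Under the Runx1 KO label, replicate 1 had the highest sum, 6761, but the lowest Tcf12 value, 3695. The part of B-lineage cells in the Tcf12 level was not tested.

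Lmo2 (ENSMUSG00000032698, protein coding; chromosome 2, 103957986 to 103981878, plus strand), the bridge of the complex, had the smallest adjusted p of the members. It had 5549, 6053 and 6106 normalised reads under the WT label and 8257, 8384 and 8459 under the Runx1 KO label, the last with a coefficient of variation of 1.23%. The gap between the groups was larger than the range within either. The means had a ratio of 1.42, with a log2 change of 0.50 (95% interval 0.37 to 0.64), with a limma adjusted p of 0.00288, and at most 0.0181 in the fits that left out a library.

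Ldb1 (ENSMUSG00000025223, protein coding; chromosome 19, 46031570 to 46045214, minus strand) had 4908, 5371 and 4865 normalised reads under the WT label and 6275, 6396 and 7266 under the Runx1 KO label. The groups were apart, and the log2 change was 0.40 (95% interval 0.22 to 0.57) with a limma adjusted p of 0.0134. Its exons share 177 bases with those of Pprc1 on the opposite strand, and whether counting used the strand is not given in the sources used here, so the value carries that uncertainty.

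Cbfa2t3 (ENSMUSG00000006362, protein coding; chromosome 8, 122625141 to 122699109, minus strand) had 2475, 2382 and 2779 normalised reads under the WT label. The libraries labelled Runx1 KO had 2916, 3490 and 3575, all above the highest WT value. The log2 change was 0.38 (95% interval 0.15 to 0.62) with a limma adjusted p of 0.0336. This was the least stable call: it was kept without WT replicate 3 and without Runx1 KO replicate 1, and lost in the other 4 leave-one-out fits, in which the limma adjusted p ran up to 0.122. An antisense gene, Gm10612, shares 295 exon bases with Cbfa2t3 but reached 31.7 normalised reads at most.

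Partners of LMO and LDB proteins outside the member list went both ways. Of 10 tested, 2 rose, 2 fell and 6 did not pass by limma, with a median log2 change of 0.03. The genes that fell were other LMO genes, whose products can also bind LDB1. Lmo1 had 340, 403 and 411 normalised reads under the WT label and 183, 155 and 172 under the Runx1 KO label, a log2 change of -1.17 (SE 0.13, limma adjusted p 0.00255). Lmo4 had 3448, 2835 and 2911 against 2144, 1828 and 1598, a log2 change of -0.73 (SE 0.12, limma adjusted p 0.00900). Lmo2 thus rose while Lmo1 and Lmo4 fell, and all 3 calls were kept in every fit that left out a library.

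Single-stranded DNA binding proteins attach to LDB1 and protect it from breakdown, and 2 of their 3 tested genes rose. Ssbp2 had 1037, 1053 and 1149 normalised reads under the WT label and 1487, 1395 and 1539 under the Runx1 KO label, a log2 change of 0.45 (SE 0.07, limma adjusted p 0.00776). Ssbp4 rose by 0.31 (SE 0.09, limma adjusted p 0.0421), but kept its call in 1 of 6 leave-one-out fits, the one without WT replicate 2. Ssbp3 changed by 0.20 (SE 0.08, limma adjusted p 0.128).

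Of 15 other corepressor and coactivator genes, 2 rose, 1 fell and 12 did not pass by limma, with a median log2 change of 0.04. Gfi1b, which encodes a repressor that acts with the complex in red cell and megakaryocyte precursors, had 1048, 1646 and 1416 normalised reads under the WT label and 2289, 2725 and 3943 under the Runx1 KO label. Its log2 change was 1.11 (SE 0.23, limma adjusted p 0.0173), with a limma adjusted p of 0.0555 without Runx1 KO replicate 2. Smarca4, the ATPase gene of a SWI/SNF complex, changed by -0.24 (SE 0.06, limma adjusted p 0.0363) and did not pass in any of the 6 leave-one-out fits, nor with library totals as scaling, under which 4 genes of the list rose.

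Promoter sequences were available for 9 of the 10 members, 16 promoters in all, each from 250 bases before to 50 bases after a RefSeq start site on GRCm38.p6. They were searched on both strands for GATA sites (AGATAA or TGATAA), E-boxes (CANNTG), RUNX sites (TGTGGT or TGCGGT), an ETS site (GGAAGT) and a KLF site (CCACACCC). A GATA match was in 3 of the 16, or 18.8%, and in 18.6% of all 32851 promoters of that length. An E-box was in 68.8% of the 16 and 72.3% of all, an ETS match in 18.8% and 23.8%, and a RUNX match in 6.25% and 22.4%. The KLF letters were in 0 of the 16 and in 3.56% of all. The 3 promoters with a GATA match belonged to Tal1, Ldb1 and Cbfa2t3. Their bases before the start site are shown 5′ to 3′ with GATA, RUNX and ETS matches in capitals.
Tal1, chr4:115056176-115056425, plus strand: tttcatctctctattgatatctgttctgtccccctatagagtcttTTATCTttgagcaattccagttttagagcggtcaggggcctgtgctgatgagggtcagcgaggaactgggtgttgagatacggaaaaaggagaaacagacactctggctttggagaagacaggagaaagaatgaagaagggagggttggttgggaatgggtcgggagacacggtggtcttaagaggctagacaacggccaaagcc
Ldb1, chr19:46037071-46037320, minus strand: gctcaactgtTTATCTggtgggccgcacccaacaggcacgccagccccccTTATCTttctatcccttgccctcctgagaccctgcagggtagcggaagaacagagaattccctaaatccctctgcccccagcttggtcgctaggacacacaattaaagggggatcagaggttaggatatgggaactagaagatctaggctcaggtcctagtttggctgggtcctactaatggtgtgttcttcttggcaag
Cbfa2t3, chr8:122699110-122699359, minus strand: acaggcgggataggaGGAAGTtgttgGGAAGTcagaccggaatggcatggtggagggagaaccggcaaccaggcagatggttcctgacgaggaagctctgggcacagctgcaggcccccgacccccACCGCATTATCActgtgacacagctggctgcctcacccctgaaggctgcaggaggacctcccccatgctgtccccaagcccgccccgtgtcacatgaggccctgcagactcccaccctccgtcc
In the Cbfa2t3 promoter the RUNX match, written on this strand as ACCGCA at -124 to -119 from the start site, runs straight into the GATA match TTATCA at -118 to -113, and an E-box CAGCTG lies at -104 to -99. It was the 1 member promoter with a RUNX match. The Tal1 match TTATCT is at -205 to -200, and Ldb1 has TTATCT at -240 to -235 and again at -200 to -195. Neither of the 2 Gata2 promoters held a GATA, RUNX, ETS or KLF match in these windows, and the distal one is shown for that reason.
Gata2, chr6:88193641-88193890, plus strand: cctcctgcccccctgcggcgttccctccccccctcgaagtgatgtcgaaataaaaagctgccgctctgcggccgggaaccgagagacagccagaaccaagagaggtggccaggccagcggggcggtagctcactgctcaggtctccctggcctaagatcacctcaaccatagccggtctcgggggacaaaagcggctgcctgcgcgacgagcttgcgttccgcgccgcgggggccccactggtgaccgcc
A match is a run of letters and not a bound site, and distant enhancers lie outside these windows.

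Levels of different genes were compared as normalised reads per kb of exon. The length was that of all annotated exons of a gene merged, 15529 bases for Tcf12 and 8373 for Cbfa2t3. Which transcripts were present was not tested, so the order depends on these lengths. In normalised reads under the WT label, Tcf12 (mean 3789) stood above Zfpm1, Cbfa2t3, Gata2, Tal1 and Gata1. Under the WT label the order was Lmo2 (2725 ± 142 reads per kb, SD, n = 3), Lyl1 (2460 ± 14.6), Ldb1 (1096 ± 60.9), Zfpm1 (829 ± 37.7), Gata1 (650 ± 93.5), Tal1 (552 ± 63.8), Gata2 (465 ± 105), Cbfa2t3 (304 ± 24.8), Tcf12 (244 ± 28.3) and Gata3 (21.5 ± 4.37). Gata1, Tal1 and Gata2 overlapped with their neighbours in this order, and the other neighbouring pairs were apart in all 3 libraries. Under the Runx1 KO label, Lmo2 led again at 3863 ± 47.4 reads per kb, and Zfpm1 (1550 ± 247) stood beside Ldb1 (1443 ± 117) with overlapping ranges. Gata1, Tal1 and Gata2 overlapped there too, at 979 ± 244, 922 ± 192 and 806 ± 51.3 reads per kb. Gata3 was the lowest under both labels, at the 19.2 and 23.5 percentile of all tested genes per kb, while Lmo2 was at 97.4 and 98.8.

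**Figure D3:**
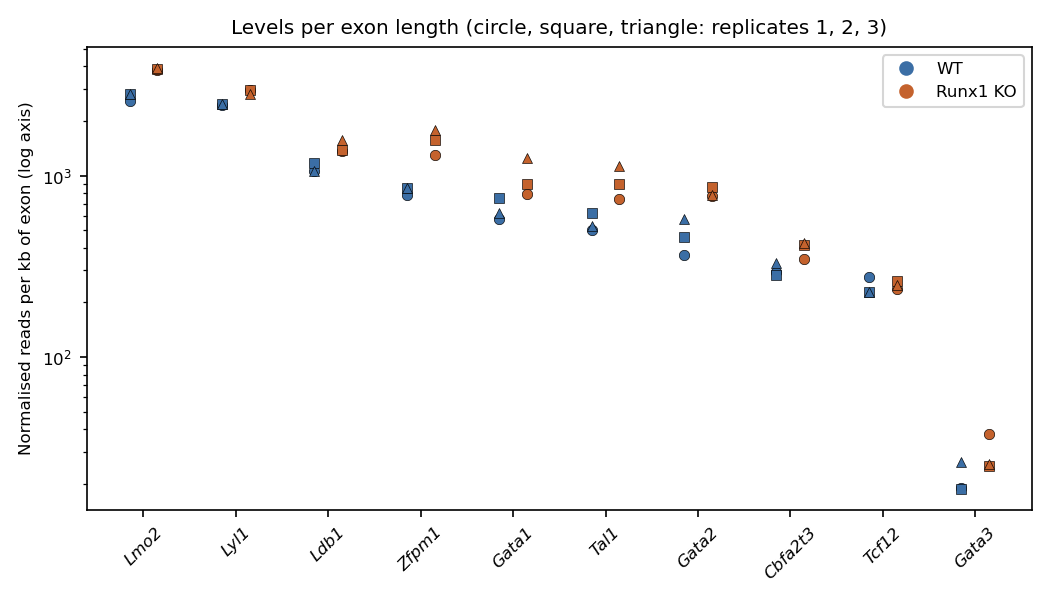
Normalised reads per kb of exon for each member and library on a log axis, ordered by the mean of the libraries labelled WT. Lmo2 is highest under both labels (2725 and 3863 reads per kb) and Gata3 lowest (21.5 and 29.6).

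Ratios within a library do not depend on its scaling, and 7 ratios between members were compared. With 3 libraries against 3 the exact two-sided permutation test cannot go below p = 0.1, so no ratio could pass. The Benjamini-Hochberg adjusted exact p over the 7 was 1 for Cbfa2t3 to Ldb1 and 0.35 for each of the others. As reads per kb, Gata2 stood at 0.636, 0.604 and 0.924 of Gata1 under the WT label and at 0.984, 0.964 and 0.622 under the Runx1 KO label. WT replicate 3 was close to the 2 high Runx1 KO libraries and Runx1 KO replicate 3 to the 2 low WT ones, so the groups overlapped and the difference of 0.24 in mean log2 ratio had an exact permutation p of 0.3. Gata1 stood above Gata2 per kb in all 6 libraries, but in normalised reads Gata2 was the higher in all 6. The order thus depends on the exon lengths used, 2438 bases for Gata1 and 5398 for Gata2. The level of every ratio depends on such lengths, while its difference between the labels does not.

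The Tal1 to Tcf12 ratio was 1.82, 2.75 and 2.31 under the label WT and 3.13, 3.41 and 4.53 under Runx1 KO, a difference of 0.69 in mean log2 ratio (exact permutation p = 0.1). The ratio of Gata1 to its cofactor gene Zfpm1 was 0.730, 0.886 and 0.732 under WT and 0.606, 0.574 and 0.699 under Runx1 KO, a difference of -0.32 (exact permutation p = 0.1). Those were the 2 ratios whose groups did not overlap. Tal1 to Lyl1 was 0.206, 0.252 and 0.214 under WT and 0.250, 0.301 and 0.402 under Runx1 KO, with a slight overlap and a difference of 0.48 (exact permutation p = 0.2). Cbfa2t3 to Ldb1 differed by -0.01 (exact permutation p = 1), Lmo2 to Ldb1 by 0.11 (p = 0.2) and Gata2 to Gata3 by 0.36 (p = 0.3).

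**Figure D4:**
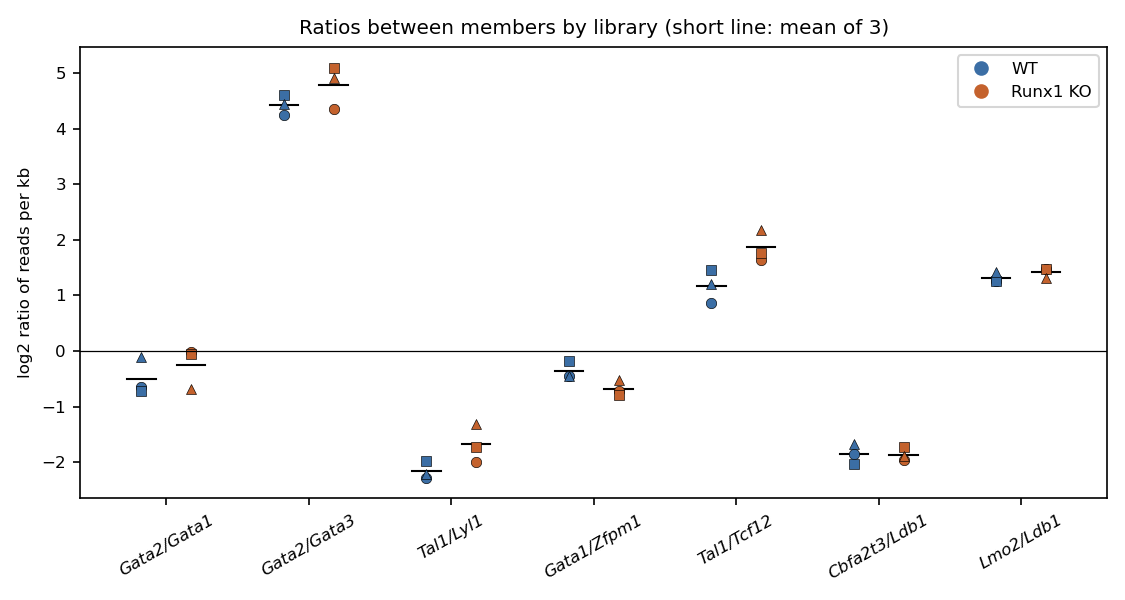
Log2 ratio of reads per kb for 7 pairs of members in each library; short lines are the means of 3. The groups are apart for Gata1/Zfpm1 and Tal1/Tcf12 and overlap for the other 5.

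The members varied alike only in part within the groups. How often all tested genes had the same order of libraries was not counted. Runx1 KO replicate 1 was the lowest of its 3 libraries for 8 of the 10 members, and Runx1 KO replicate 3 the highest for 6, among them Gata1, Zfpm1, Tal1, Ldb1 and Cbfa2t3. Gata2 was also lowest in Runx1 KO replicate 1, but its highest value was in Runx1 KO replicate 2. Among the libraries labelled WT, replicate 1 was the lowest for 6 members, and replicate 2 the highest for 5, Gata1 and Tal1 among them.

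Genes that red cell precursors express under GATA1 were set beside these differences between libraries. The 23 tested genes of the erythroid list summed to 59367, 80625 and 52969 normalised reads for the WT label, replicates 1 to 3, and for Runx1 KO to 52905, 65318 and 87351. In both groups the library with the highest sum, WT replicate 2 and Runx1 KO replicate 3, also had the highest Gata1 and Tal1 values, but the lowest WT sum was in replicate 3 and the lowest WT value of Gata1 and Tal1 in replicate 1. Single genes went against the sum: Slc4a1, an anion exchanger gene of red cells, had 699, 164 and 157 normalised reads in Runx1 KO replicates 1 to 3, highest where Gata1 was lowest, and Alas2 and Hbb-bs were also highest in replicate 1. The groups overlapped in this sum, and the part of the share of erythroid cells in the levels of Gata1, Tal1 and Zfpm1 was not tested.

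Genes of that list went both ways. By limma 1 of the 23 rose and 6 fell, 16 did not pass, and the median log2 change was -1.9e-04. Aqp1, a water channel gene, had 6059, 7648 and 5223 normalised reads under the WT label and 9971, 11784 and 15984 under the Runx1 KO label (log2 change 0.99, SE 0.20, limma adjusted p 0.0152). Alas2, the first enzyme of heme synthesis in red cells, had 597, 1501 and 679 against 186, 74.3 and 81.6 (log2 change -3.01, SE 0.45, limma adjusted p 0.0062). The globin genes Hbb-bt, Hbb-bs and Hba-a2 fell by 2.68, 2.53 and 2.51 on the log2 scale, values that are uncertain because each has a near-identical copy. Klf1, the erythroid factor gene, had 1107, 1512 and 1226 normalised reads against 1516, 1990 and 3160, and did not pass (log2 change 0.74, limma adjusted p 0.0816). Leaving out Runx1 KO replicate 1 gave 5 genes higher in place of 1, and leaving out Runx1 KO replicate 2 gave 0; with all libraries DESeq2 gave 3 and either replicate block 2.

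**Figure D5:**
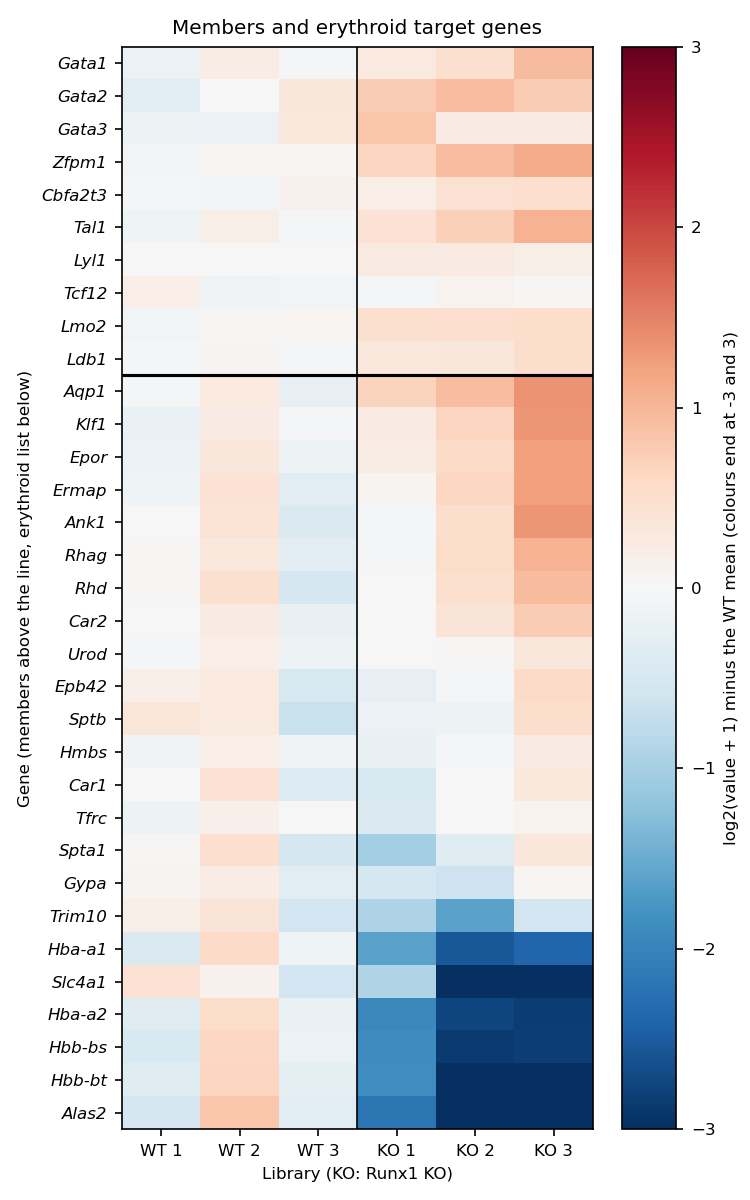
Log2(value + 1) of the 10 members and the 23 erythroid genes in each library, minus the mean of the libraries labelled WT. Members are above the line; below it Aqp1 and Klf1 are redder towards Runx1 KO replicate 3, while globin genes and Alas2 are blue in all 3 libraries labelled Runx1 KO.

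Megakaryocyte genes, which GATA1 and FOG1 also serve, rose in number: of 16 tested, 11 rose, 0 fell and 5 did not pass by limma, with a median log2 change of 0.86. Treml1, a platelet granule receptor gene, had 71.2, 75.7 and 86.3 normalised reads under the WT label and 547, 374 and 285 under the Runx1 KO label. Gp5, a subunit gene of the von Willebrand factor receptor, had 210, 238 and 291 against 846, 953 and 996, and Selp, the P-selectin gene, 289 ± 46.7 against 1004 ± 138 (SD, n = 3). Their log2 changes were 2.31 (SE 0.24), 1.93 (SE 0.14) and 1.79 (SE 0.15), and that of Tubb1 was 1.63 (SE 0.30), with limma adjusted p values from 8.97e-04 to 0.0116. Pf4 went the other way, with 428, 448 and 477 normalised reads under the WT label and 391, 238 and 153 under the Runx1 KO label. The groups of Pf4 did not overlap, but it did not pass (log2 change -0.89, SE 0.31, limma adjusted p 0.0782). The summed list was highest in Runx1 KO replicate 1 (19625 normalised reads) and lowest of its group in replicate 3 (13017), the reverse of Gata1 and Tal1. The groups overlapped in this sum, which reached 13148 under the WT label. The largest part of the sum was Plek (mean 5036 under WT and 5305 under Runx1 KO, limma adjusted p 0.856). The overlap of the sum therefore does not describe the other genes of the list. Single genes differed in the order of the libraries labelled Runx1 KO: Treml1 was highest in Runx1 KO replicate 1, but Gp5 and Selp in replicate 3 (Selp at 1107). Without a library the count of rising genes was between 6 and 11, with 6 without Runx1 KO replicate 2 and without WT replicate 2, and 7 without WT replicate 1; 1 gene fell with DESeq2 and without Runx1 KO replicate 1.

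GATA2 and GATA1 also act in mast cells and basophils, whose genes split. Of 12 tested, 2 rose, 5 fell and 5 did not pass by limma, and the median log2 change was -0.01. Prss34 and Mcpt8, protease genes of basophils, had 2899 ± 1062 and 1662 ± 198 normalised reads under the WT label and 3.73 ± 1.63 and 132 ± 10.4 under the Runx1 KO label (SD, n = 3). Fcer1a fell from 252 ± 98.3 to 3.03 ± 1.99, and the mast cell protease gene Cma1 had 18.8, 66.6 and 47.0 against 8.37, 2.97 and 8.95. Il1rl1, the interleukin 33 receptor gene, had 533, 673 and 632 against 1091, 1325 and 1721 (log2 change 1.15, SE 0.17, limma adjusted p 0.00618). Kit, with the values given above, was the other gene of this list that rose, and 4 rose without WT replicate 1. The 13 listed genes of this set summed to between 21809 and 25525 normalised reads under WT and between 24203 and 27315 under Runx1 KO, overlapping. The largest parts of this sum were Kit (mean 8301 under WT and 12649 under Runx1 KO) and Hdc (6503 and 8021). Kit is the sorting marker, so the sum does not measure mast cells and basophils alone. The part of such cells in the Gata2 level was not tested.

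Genes of other stem cell factors that bind near GATA2, TAL1, LYL1 and LMO2 were compared as a list of 12. By limma 6 rose and 3 fell, with a median log2 change of 0.46. Beside Gfi1b and Runx1, Hlf and Meis1 rose by 1.04 (SE 0.19) and 1.01 (SE 0.23), and the falls of Spi1, Ikzf1 and Fli1 were between 0.29 and 0.36 in size. The count of falls was 0 in 5 of the 6 leave-one-out fits and with library totals as scaling, and 1 with edgeR.

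TAL1, LYL1 and LMO2 are made in endothelial cells as well. Of 6 tested endothelial markers 3 rose, 0 fell and 3 did not pass by limma. Tek, Kdr and Emcn rose by 1.92, 1.63 and 1.39 on the log2 scale, and stem cells can express them too. Cdh5, a defining gene of endothelium, had 57.3 ± 12.3 normalised reads under the WT label and 32.1 ± 8.29 under the Runx1 KO label (SD, n = 3). Its limma adjusted p was 0.0765. Plvap, another endothelial gene, had 172, 204 and 147 normalised reads under the WT label and 277, 233 and 487 under Runx1 KO, apart in the other direction, with a limma adjusted p of 0.0654. Pecam1 had 3185 ± 488 and 3072 ± 613 (limma adjusted p 0.825), and Cldn5, which was not tested, 4.63 ± 3.12 and 4.67 ± 5.45, near the floor of 3 reads. With DESeq2 and with library totals as scaling 4 of the markers rose.

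The nearest tested gene that lay wholly to each side of a member was read as well, 20 genes in all; genes overlapping a member, such as Pprc1 at Ldb1 and Nfix at Lyl1, were not among them. Of the 20, 3 were higher and 1 was lower by limma, where 10.6% of all tested genes were called higher, 11.3% lower and 21.9% in either direction. Pdzk1ip1, which begins 17.0 kb beyond Tal1, had 138, 172 and 171 normalised reads under the WT label and 276, 282 and 313 under the Runx1 KO label. Its log2 change was 0.86 (SE 0.13, limma adjusted p 0.00686), while Stil, 13.2 kb on the other side of Tal1, changed by -0.10 (SE 0.08, limma adjusted p 0.377). Trmt1, 1.65 kb from Lyl1, rose by 0.27 (SE 0.06, limma adjusted p 0.0183), which is close to the change of Lyl1 itself; without WT replicate 3 and without Runx1 KO replicate 2 or 3 it did not pass. Banp, 253 kb from Zfpm1, rose by 0.79 (SE 0.23, limma adjusted p 0.0486) and passed in 2 of 6 leave-one-out fits, those without WT replicate 3 or Runx1 KO replicate 1. Trappc2l, 8.48 kb from Cbfa2t3, fell by 0.51 (SE 0.08, limma adjusted p 0.00727). The neighbours of Gata1, Gata2, Gata3, Lmo2, Ldb1 and Tcf12 did not pass.

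For Gata2, Gata1 and Tal1 the 5 genes of most similar pattern were found by Pearson's r of log2 values over the 6 libraries, among 11200 genes with a mean of at least 100 normalised reads. These r include the difference between the labels, and with 6 points and so many genes very high values are common, so they are a description. For Gata2 the genes were Slc35b4, Fiz1, Bbs12, Zscan12 and Slc22a3 (r from 0.993 to 0.998). For Gata1 they were Golm1, Ptdss2, Fitm2, Smim1 and Klf1 (0.993 to 0.997), the last an erythroid gene of the list above. For Tal1 they were Gaa, Pfkm, Thumpd3, Iba57 and Slc43a1 (0.994 to 0.999). Among the members Gata1 was closest to Tal1 (r = 0.979), then Ldb1 (0.950) and Zfpm1 (0.909). Gata2 was closest to Lmo2 (0.953) and had r = 0.725 with Gata1, and Tcf12 had r between -0.12 and 0.08 with these 3.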

How the data were processed

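RNA of c-Kit+ bone marrow cells was extracted, poly-A selected and made into strand-specific libraries that were sequenced in a single pool on a HiSeq2500, per the labels' protocols. HISAT2, HTSeq 0.9.1, mm10 and GRCm38 are named in the submitters' processing notes; the annotation and the strand setting are not given in the sources used here. The deposited signal is a gene read count divided by a size factor per library, called normalised read count. This was worked out from the values: 100% in each file were whole multiples of a step, within 0.001, and the multiples are the recovered reads. The reciprocal of the step, from 0.956 to 1.04, equalled the DESeq2 size factor. The floor of 3 reads, between 2.88 and 3.14 normalised reads, covers counting error only.

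Of the 20097 listed genes 15410 passed filterByExpr (minimum count 10, minimum total 15). limma 3.58.1 in R 4.3.3 was run on the log2 of the normalised read count plus 1, with a mean trend and no covariate beside the group. Its two-sided p-values were adjusted by Benjamini and Hochberg over all genes tested, with a threshold of 0.05. Changes on this scale are understated for weak genes. The limma script was tested on simulated data. Ratios were compared with an exact two-sided permutation test. The alternatives were edgeR 4.0.16 and DESeq2 1.42.0 on recovered reads, pseudocounts of 0.5 and 5, other filters and scalings, a replicate block and leaving out each library. Symbols came from a table of Ensembl identifiers (20077 matched); positions and exon lengths from GENCODE M21 on GRCm38, and promoters from RefSeq.

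Members and lists were chosen with earlier results of these data known. The lists hold 186 genes, of which 165 were tested. Text names the members, Runx1, up to 4 called genes of largest change per direction and list, and all genes of lists of 5 or fewer. It also names the 5 genes most like Gata2, Gata1 and Tal1, and nearest neighbours. Tcf3, Tcf4, Ssbp3, Klf1, Slc4a1, Pf4, Plek, Hdc, Cdh5, Plvap, Pecam1, Cldn5, Elane, Prtn3, Mpo and Ctsg were added after their values were seen. Some genes that the rule names are not reported here.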

Additional observations from a re-analysis of the deposited data

How the results depend on the processing

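Over the 10 alternatives that kept all 6 libraries, 7 or 8 members passed and none changed direction; the eighth was Gata1, with DESeq2, with library totals and with either replicate block. Of 100 member values under these settings, 96 stayed on their side of the threshold and 4 became stronger. The count of all called genes ran from 3182 to 3911 against 3370, of higher genes from 1556 to 2383 and of lower genes from 1372 to 2187, and that of called genes on the lists from 68 to 87 against 74. Library totals raised the share of calls that were higher from 48.4% to 63.5%.

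With 1 library left out, 3 to 8 members, 1349 to 3551 genes (627 to 1627 higher, 722 to 1924 lower) and 40 to 89 listed genes passed; each of the lowest counts came without Runx1 KO replicate 2. These fits have fewer samples, and no other cause was tested. Of 60 member values, 47 stayed, 10 became weaker, 1 stronger and 2 reversed: the Tcf12 log2 change was -0.011 without WT replicate 2 and -0.0075 without WT replicate 3. The difference in mean log2 ratio ran from -0.10 to 0.08 for Cbfa2t3/Ldb1, from 0.13 to 0.46 for Gata2/Gata1 and from 0.53 to 0.83 for Tal1/Tcf12; the other 4 kept their sign.

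Same-numbered libraries correlated in their deviations from the group means with r of 0.29, 0.13 and -0.01, so the numbers were not taken as pairs; Runx1 KO replicate 3 correlated best with WT replicate 2 (0.23), not with its own number. With the replicate block limma called 8 members (Gata1 at an adjusted p of 0.0383), 3843 genes and 86 listed genes.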

Other observations

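Other lineages of the marrow, which the members do not define, moved in the same libraries. Of 11 tested neutrophil granule genes 0 rose and 8 fell by limma, and the log2 changes of Ngp, Ltf, Camp and Lcn2 lay between -2.64 (Ngp) and -2.42 (Lcn2). These falls were uneven between libraries: Ltf had 23247, 7105 and 6219 normalised reads in Runx1 KO replicates 1 to 3. Other genes of the list changed less, Prtn3 by -0.41, Elane by -0.35, Mpo by -0.14 and Ctsg by -0.05. Mpo and Ctsg did not pass. The sum of the 11 genes ran from 313124 to 396290 normalised reads under the WT label and from 158272 to 217808 under the Runx1 KO label. Of 9 monocyte and macrophage genes 0 rose and 5 fell, among them Klf4, Cx3cr1, Ly6c2 and Cd68; their sum ran from 42908 to 52924 and from 25101 to 37535 normalised reads. Of 8 eosinophil genes, a lineage in which GATA1 acts, 0 rose and 3 fell, namely Ear2, Ear1 and Epx, of which the Ear genes belong to a family of close copies. The eosinophil sum was 14113 to 22207 normalised reads under WT and 6956 to 11565 under Runx1 KO. The part of eosinophils in the Gata1 level was not tested. Without Runx1 KO replicate 2 the counts of falling genes were 4 for neutrophils, 4 for monocytes and 1 for eosinophils, and without Runx1 KO replicate 1 they were 8, 8 and 4.

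Among 14 tested T-lymphoid and innate lymphoid genes, 1 rose (Lat) and 2 fell (Cd2 and Il7r) by limma. With all 6 libraries the count of falling genes was 5 with DESeq2, 6 with the replicate block in limma, 5 with it in edgeR and 1 with edgeR without it. Without Runx1 KO replicate 1, 12 of them fell; without Runx1 KO replicate 2 or 3, or WT replicate 1 or 3, it was 0, and without WT replicate 2 it was 1.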
